A study of Oryza sativa with 36 samples.

Results

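The DREB1 genes, also called CBF genes, and DREB2B encode AP2-type transcription factors of the cold response in rice leaves, and they were followed here by 6 probe sets of the Affymetrix rice genome array, 1 each for DREB1A, DREB1B, DREB1C, DREB1E, DREB1G and DREB2B, out of 57258 probe sets. A probe set is a group of short probes for 1 transcript, and the members were fixed by gene name and probe set name, with earlier results of these data known. Leaves came from S3-stage seedlings of LTH, in full Li-Jiang-Xin-Tuan-Hei-Gu, a japonica rice that tolerates chilling, and of IR29, an indica rice that is sensitive to it. In each genotype 3 arrays, labelled as biological replicates, were run for seedlings held at 4 °C for 2, 8, 24 or 48 h, for seedlings returned to 29 °C for 24 h after 48 h of chilling (recovery), and for unchilled controls at 29 °C, which makes 12 groups and 36 arrays. Both genotypes grew side by side on shared soil plates. The sampling notes describe control leaves at each time, whereas the labels hold 1 control group per genotype with no time, so the hour of day of the control leaves is not known here. By their nominal times the 24 h, 48 h and recovery leaves were taken at the same hour, which holds the hour fixed between recovery and 48 h. In all comparisons with a control, treatment and hour of day cannot be told apart.

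DREB factors bind the dehydration-responsive element, a short motif with the core CCGAC, in the promoters of cold- and drought-inducible genes. In Arabidopsis the CBF genes are switched on soon after the start of cold by bHLH factors of the ICE1 type, and in rice the same role has been described, with the MYB factor MYBS3 acting as a repressor of DREB1 genes. DREB1A, DREB1B and DREB1C are the best studied rice members. DREB2B belongs to a related branch and is known for alternative splicing, which gives a functional and a nonfunctional transcript. Its probe set gives 1 value per array, and which of these transcripts its probes detect was not examined. DREB1B, DREB1H and DREB1A are consecutive genes on chromosome 9 of the RefSeq assembly ASM3414082v1, DREB1C lies on chromosome 6, DREB1E on chromosome 4, DREB1G on chromosome 2 and DREB2B on chromosome 5.

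The sequences at hand for these genes were the primers of the real-time PCR in the same study, and they are shown because they name the transcripts of DREB1A, DREB1B and DREB1C that the study set out to measure. They are written from the 5′ to the 3′ end.
DREB1A forward: tgcctcaacttcgccgactc
DREB1A reverse: gcaacttgttccatcacattaccg
DREB1B forward: cgacgacgggttcaggttcg
DREB1B reverse: ttgccattcatcctcagtctcatt
DREB1C forward: acttcgaccagccgtcctact
DREB1C reverse: ctccctaccagctcagccatt
The primers were 20 to 24 bases long, and none was shared between the genes.

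The values are linear intensities with array medians between 9.81 and 11.16. A level is compared only within a probe set, since probes differ in brightness. By the study's description the array queries mostly japonica transcripts and few indica ones. The part of probe match in differences of level or response between LTH and IR29 was not tested. Of the 9 photosynthesis genes measured as leaf markers, 8 had control group means from 241 to 5523 and RBCS-A was dim, and their sum on the control arrays lay between 25252 and 26123 for LTH and between 25784 and 27576 for IR29. At 48 h it lay between 10292 and 10958 for LTH and between 9213 and 17436 for IR29, and in recovery between 25892 and 27799 for LTH and between 8138 and 11581 for IR29. The sum of 6 shoot meristem markers at 8 h was 123 to 273 in LTH, against 249 to 350.4 in its control, and 395 to 422 in IR29, against 209.9 to 224 in its control. At 48 h the meristem sum lay between 62.6 and 171 for LTH and between 88.0 and 136 for IR29, and in recovery between 166 and 389.5 for LTH and between 21.8 and 30.8 for IR29. The sum of 4 root markers over the chilled and recovery arrays lay between 76.1 and 898 for LTH, against 189 to 356 in its control, and between 57.8 and 684 for IR29, against 242 to 415 in its control, and at 24 h in IR29 it was 66.5 to 90.9. The meristem and root sums mix markers that moved in different directions. Over the chilling times in IR29 the meristem markers FON1 and OSH71 had log2 changes of -1.45 to -0.44 and -0.94 to 3.14. For the root markers LSI1 and CASP1 these were -3.12 to -2.03 and 0.92 to 2.32. In bulk leaf RNA a change in the share of a cell type and a change in RNA per cell cannot be told apart. The part of these shifts in the results below was not tested.

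Of the 6 probe sets, those of DREB1A, DREB1B and DREB1G rose at all 4 chilling times in both genotypes. In total 37 of 48 tests gave a rise and 4 gave a fall, and all falls were of the dim DREB1C probe set. A rise or fall is a change of at least 2-fold against the control arrays of the same genotype at a Benjamini-Hochberg adjusted p below 0.05 over all probe sets, by limma. Over all probe sets, the share that rose at all 4 times was 4.40% in LTH and 3.52% in IR29, against 3 of 6 and 5 of 6 members, and 2.09% rose at all 8, against 3 of 6. At the separate times, 4, 5, 4 and 4 members rose in LTH at 2, 8, 24 and 48 h, beside 6.99%, 7.26%, 9.46% and 12.3% of all probe sets. In IR29 5 members rose at each of the 4 times, beside 7.05%, 7.24%, 8.54% and 10.6%. The shares that fell were 6.62%, 6.50%, 10.9% and 13.1% for LTH, against 1, 1, 0 and 1 member, and 9.49%, 7.98%, 11.4% and 13.8% for IR29, against 0, 0, 0 and 1 member. The 4 chilling comparisons of a genotype share its control arrays.

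**Figure D1:**
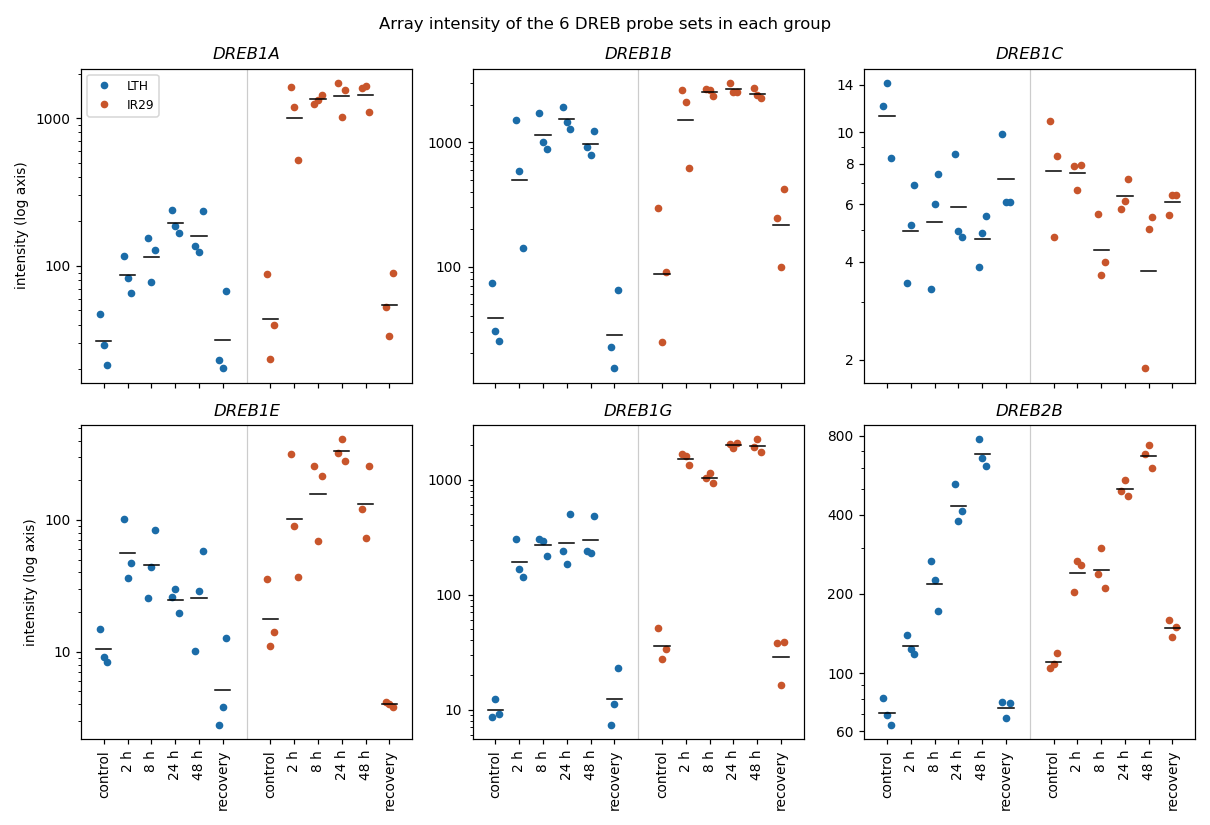
Array intensity (log axis) of the 6 probe sets in the control, the 4 chilling times and recovery, with LTH on the left and IR29 on the right of each panel. Each point is 1 array and each bar the geometric mean of 3 arrays. Each panel has its own scale, and DREB1C stayed between 1.88 and 14.2 while every chilled array of DREB1A, DREB1B, DREB1G and DREB2B lay above the controls of its genotype.

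DREB1A, a DREB1 gene whose overexpression is known to raise stress tolerance in rice, was higher in the cold in both genotypes, and at a far lower level in LTH than in IR29. In LTH its intensity was 46.9, 29.2 and 21.3 in the control, 117, 83.3 and 66.0 at 2 h, 155, 77.5 and 128 at 8 h, 239, 185 and 166 at 24 h and 137, 124 and 233 at 48 h. In IR29 the readings were 87.6, 23.6 and 40.03 in the control, 1621, 1188 and 521 at 2 h, 1254, 1328 and 1434 at 8 h, 1731, 1022 and 1555 at 24 h and 1599, 1641 and 1101 at 48 h. Every chilled array lay above every control array of its genotype, and every chilled LTH array lay below every chilled IR29 array. The log2 fold changes of LTH for 2, 8, 24 and 48 h were 1.48, 1.90, 2.66 and 2.36 (standard error 0.46, adjusted p = 0.0196, 0.00252, 3.68e-05 and 0.000127, limma). In IR29 they were 4.52, 4.94, 5.01 and 5.03 at the same times, with adjusted p between 6.12e-10 and 1.13e-08. The rise at 2 h in LTH, 2.80-fold, was no longer called without LTH control replicate 2 (adjusted p = 0.0572), LTH control replicate 3 (0.108) or LTH 2 h replicate 1 (0.0909).

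DREB1B, in the same cluster on chromosome 9 as DREB1A and like it a cold-induced DREB1 gene, rose strongly in both genotypes. In LTH its intensity was 73.8, 30.1 and 25.3 in the control, 1507, 586 and 142 at 2 h, 1716, 1009.5 and 878 at 8 h, 1907, 1462 and 1278 at 24 h and 920.0, 793 and 1222 at 48 h. The IR29 readings were 296, 24.9 and 90.5 in the control, 2649, 2107 and 621 at 2 h, 2656, 2624 and 2364 at 8 h, 2996, 2516 and 2532 at 24 h and 2726, 2391 and 2254 at 48 h. The chilled and control arrays did not overlap in either genotype, and among these groups the ratio of highest to lowest array was largest at 2 h in LTH and in the control in IR29. The log2 fold change in LTH was 3.71, 4.91, 5.32 and 4.65 at 2, 8, 24 and 48 h (standard error 0.71, adjusted p at most 0.000261, limma). In IR29 it was 4.11, 4.86, 4.93 and 4.81 (adjusted p at most 5.39e-05). At 2 h replicate 3 was the lowest array for DREB1A and for DREB1B in both genotypes, and the 2 h rise of DREB1B lay between 2.91 and 4.62 for LTH and between 3.21 and 4.99 for IR29 when 1 array was left out.

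DREB1G, a DREB1 gene on chromosome 2, rose at all 4 times in both genotypes. In LTH its intensity was 8.58, 12.4 and 9.20 in the control, 303, 168 and 141 at 2 h, 307, 293 and 217 at 8 h, 239.7, 185 and 499.6 at 24 h and 240.1, 230.0 and 479 at 48 h. For IR29 the values were 51.5, 27.2 and 33.3 in the control, 1672, 1597 and 1332 at 2 h, 1028, 1143 and 927 at 8 h, 2029, 1899 and 2090.4 at 24 h and 1926, 2240.1 and 1747 at 48 h. As for DREB1A, no chilled LTH array reached a chilled IR29 array, and here the control arrays were apart too, with LTH below IR29. For 2, 8, 24 and 48 h the log2 fold changes of LTH were 4.28, 4.76, 4.82 and 4.91, and those of IR29 were 5.41, 4.84, 5.80 and 5.77. The standard error of these changes was 0.38, the smallest among DREB1A, DREB1B, DREB1E and DREB1G, and the largest adjusted p was 9.97e-10 (limma).

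DREB1E, a less studied DREB1 gene on chromosome 4, rose at 2 and 8 h in LTH and at all 4 times in IR29. In LTH its intensity was 14.98, 9.07 and 8.36 in the control, 102, 36.3 and 47.0 at 2 h, 25.5, 43.8 and 84.4 at 8 h, 25.9, 29.7 and 19.5 at 24 h and 10.1, 29.0 and 58.0 at 48 h. IR29 arrays read 35.9, 10.97 and 14.2 in the control, 319, 90.7 and 37.2 at 2 h, 256, 69.2 and 217 at 8 h, 325, 409 and 282 at 24 h and 122, 72.5 and 257 at 48 h. The highest LTH group was that at 2 h, the highest IR29 group that at 24 h, and at 48 h LTH replicate 1 lay within the control range. In IR29 DREB1E rose at all 4 times, by 2.53, 3.14, 4.24 and 2.89 on the log2 scale (standard error 0.69, adjusted p = 0.00617, 0.000886, 1.5e-05 and 0.00127, limma). In LTH it rose at 2 h (2.42, adjusted p = 0.0104) and 8 h (2.12, adjusted p = 0.0247), and the values at 24 h (1.24, adjusted p = 0.195) and 48 h (1.30, adjusted p = 0.155) did not pass. Without 1 array several of these calls changed: the 2 h rise was lost in LTH without replicate 1 of 2 h (adjusted p = 0.0689) and in IR29 without replicate 1 of 2 h (0.0765), the 8 h rise in LTH was lost without control replicate 2 or 3 (0.0753 and 0.086) or 8 h replicate 2 or 3 (0.057 and 0.131), and at 48 h LTH passed without replicate 1 of 48 h (1.97, adjusted p = 0.0404).

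DREB2B, from the DREB2 branch that is known mainly for drought, salt and heat responses, reached its highest levels at 48 h in both genotypes. In LTH its intensity was 80.3, 69.3 and 63.6 in the control, 139, 124 and 118 at 2 h, 267, 227 and 172 at 8 h, 523, 378 and 412 at 24 h and 774, 657 and 614 at 48 h. The IR29 arrays read 105, 108 and 119 in the control, 203, 266 and 259 at 2 h, 238, 300.1 and 210.4 at 8 h, 491, 541 and 471 at 24 h and 681, 738 and 602 at 48 h. In LTH the arrays of each time lay above those of the time before, without overlap, and in IR29 the same held except between 2 and 8 h. The log2 fold change in LTH was 0.84, 1.62, 2.61 and 3.26 at 2, 8, 24 and 48 h (standard error 0.16, adjusted p = 0.000295, 8.86e-09, 5.25e-13 and 3.33e-15, limma), and the first of these, a 1.79-fold difference, was under the 2-fold minimum. In IR29 DREB2B rose at all 4 times, by 1.12, 1.16, 2.18 and 2.60 (adjusted p at most 4.6e-06).

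Between neighbouring chilling times, 1 of 36 tests on the 6 members was called, the rise of DREB2B by 1.02 from 8 to 24 h in IR29 (standard error 0.16, adjusted p = 0.00155, limma), in a step where 0.477% of all probe sets rose and 0.823% fell. It was lost without IR29 8 h replicate 1 or 3 or IR29 24 h replicate 2, where it was 0.99, 0.90 and 0.96, each just under 2-fold. In LTH the steps of DREB2B were 0.78 at 8 h over 2 h (adjusted p = 0.0176), 0.99 at 24 h over 8 h (adjusted p = 0.00248) and 0.65 at 48 h over 24 h (adjusted p = 0.0466), all below the 2-fold minimum, and the second step passed it without LTH 8 h replicate 1 or 2 or LTH 24 h replicate 2 or 3 (1.13, 1.02, 1.09 and 1.03). For DREB1A, DREB1B, DREB1E and DREB1G none of the 24 steps was called. Their largest step was -1.35 for DREB1E in IR29 at 48 h over 24 h (95% interval -2.75 to 0.05), an interval that holds a fall of more than 2-fold and no rise of that size. Across all probe sets the share that passed in a step, in either direction, over the 3 steps was 0.428%, 0.365% and 0.559% for LTH and 7.25%, 1.30% and 0.279% for IR29.

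**Figure D2:**
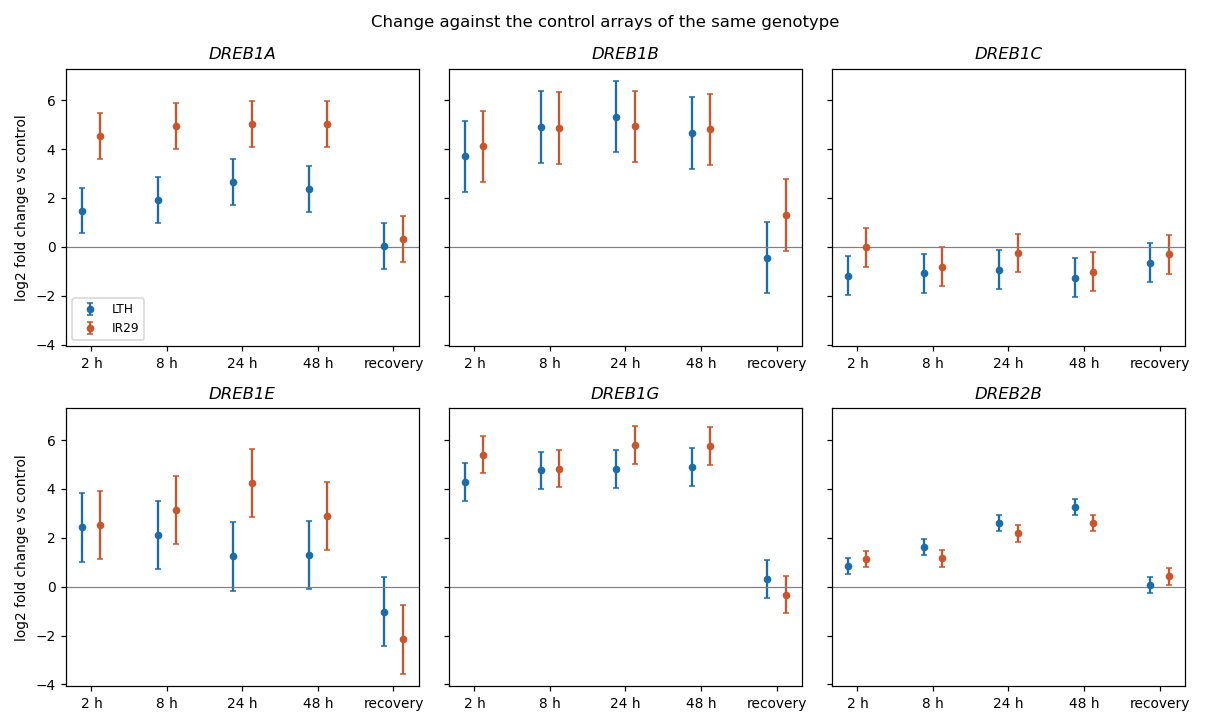
Log2 fold change (vertical axis) of each member against the control arrays of its genotype at 2, 8, 24 and 48 h of chilling and in recovery, LTH left of IR29 at each time. Points are limma estimates from 3 arrays per group and bars their 95% intervals. During chilling DREB1A lay between 1.48 and 2.66 for LTH and between 4.52 and 5.03 for IR29, and at 48 h DREB2B reached 3.26 for LTH and 2.60 for IR29.

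DREB1C, the third of the well studied rice DREB1 genes, was not measured above the dim range by the probe set that carries its name. Its intensity in LTH was 12.0, 14.2 and 8.35 in the control, 3.44, 5.17 and 6.87 at 2 h, 3.30, 6.03 and 7.44 at 8 h, 8.56, 4.97 and 4.76 at 24 h and 3.84, 4.91 and 5.51 at 48 h, and in IR29 10.8, 4.78 and 8.46 in the control, 7.90, 6.67 and 7.93 at 2 h, 5.60, 3.64 and 4.00 at 8 h, 5.83, 6.16 and 7.19 at 24 h and 1.88, 5.04 and 5.5 at 48 h. The mean level stood at the 38.2 percentile of all probe sets, so DREB1C was the member that failed a filter on the dimmest 40%, which the other 5 passed. It fell in LTH at 2 h (-1.18, adjusted p = 0.0277), 8 h (-1.09, 0.0435) and 48 h (-1.26, 0.0111) and in IR29 at 48 h (-1.02, 0.0414), with a standard error of 0.39 (limma), and each of these calls was lost without at least 1 of the 6 arrays compared. When 1 array was left out, the log2 values ranged from -1.42 to -0.92, -1.33 to -0.75 and -1.47 to -1.09 in LTH at 2, 8 and 48 h and from -1.36 to -0.53 in IR29 at 48 h, with adjusted p up to 0.147, 0.261, 0.0593 and 0.34, and without LTH 24 h replicate 1 the LTH value at 24 h passed too (-1.21, adjusted p = 0.036). In recovery it read 9.91, 6.09 and 6.11 in LTH and 5.57, 6.43 and 6.40 in IR29. A further pair of probe sets for DREB1C read between 1.00 and 5.64 on all arrays. In IR29 their log2 changes in the cold were above 0, from 0.54 to 1.24 and from 0.65 to 0.9. Of these, 1 value of the first probe set was called as a rise. In LTH they ran from -0.61 to 0.4 and from -0.41 to 0.1, with none called.

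A different probe set of the array has no gene in the annotation table but is a candidate for DREB1C. It was chosen after the values were seen, because its ratios of group means match the fold values that the study lists for the DREB1C locus, Os06g0127100. Over 5 such ratios the largest log2 gap was 0.008 for this probe set and 7.46 for the probe set that carries the gene name. That match was the selection itself, so the values below describe the candidate and are no separate support for a change of DREB1C. The study reports this locus, from the same arrays, as highly up-regulated in both genotypes, and it lists the locus among its real-time PCR genes. In LTH the candidate read 9.16, 15.2 and 9.09 in the control, 798, 1078 and 758 at 2 h, 299.9, 871 and 1187 at 8 h, 373, 395 and 1113 at 24 h, 230.4, 386 and 426 at 48 h and 17.8, 83.0 and 79.0 in recovery. In IR29 it read 24.9, 15.6 and 11.8 in the control, 1113, 1492 and 2102 at 2 h, 708, 1221 and 1091 at 8 h, 782, 940.2 and 1603 at 24 h, 856, 1075 and 692 at 48 h and 36.5, 8.35 and 56.8 in recovery. The 2 h groups had the highest mean in both genotypes, with log2 changes of 6.32 in LTH and 6.52 in IR29, and at 48 h these were 4.96 and 5.70. In LTH recovery it was still 2.17 above the control, and in IR29 recovery 0.64.

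**Figure D3:**
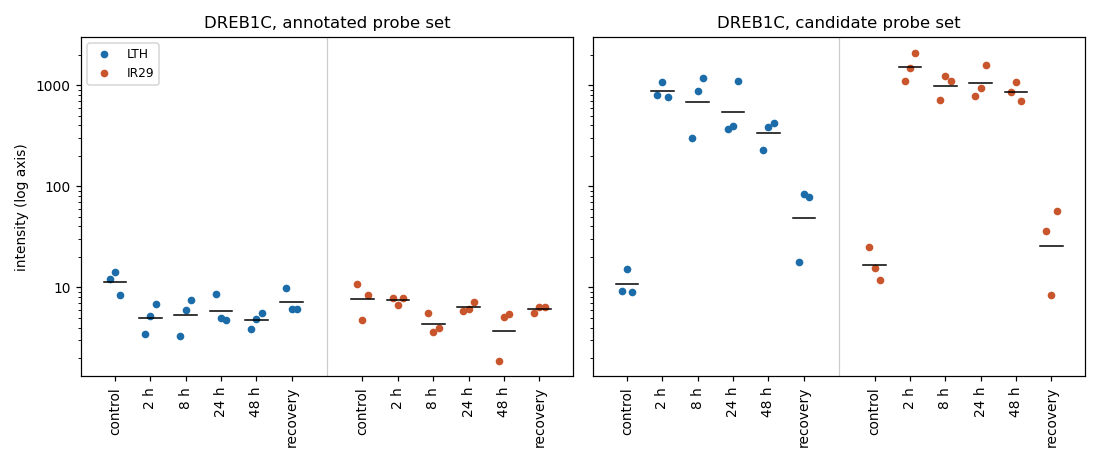
Array intensity (shared log axis) of the probe set annotated to DREB1C on the left and of the candidate probe set on the right, with LTH and IR29 by group. Points are arrays and bars geometric means of 3 arrays. The annotated probe set stays between 1.88 and 14.2, and the candidate lies between 230.4 and 2102 on all chilled arrays.

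After 24 h back at 29 °C most members were far below their levels at 48 h of chilling. Against 48 h of chilling, 5 of 6 members fell in each genotype, beside 12.3% of all probe sets in LTH and 14.5% in IR29, and DREB1C did not pass in either. DREB1A read 23.1, 20.3 and 67.8 in LTH recovery and 53.0, 33.3 and 89.9 in IR29 recovery, and changed against 48 h by -2.32 (LTH, adjusted p = 0.000147) and -4.72 (IR29, 1.1e-09, limma). DREB1G read 7.36, 11.1 and 22.9 in LTH recovery and 37.8, 16.2 and 38.7 in IR29 recovery, a change of -4.60 and -6.09. All of these recovery arrays lay below all 48 h arrays of the same genotype.

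DREB1B read 22.6, 15.2 and 65.2 in LTH recovery and 244, 98.9 and 419 in IR29 recovery, with a change against 48 h of -5.09 in LTH (standard error 0.71) and -3.50 in IR29. DREB2B read 77.5, 67.5 and 77.2 in LTH recovery and 159, 137 and 149 in IR29 recovery, with a change of -3.20 in LTH and -2.18 in IR29 (standard error 0.16). Both genes were below all 48 h arrays, and for both genes every IR29 recovery array lay above every LTH recovery array. DREB1E read 2.79, 3.80 and 12.8 in LTH recovery and 4.13, 4.04 and 3.82 in IR29 recovery, with a change of -2.33 (LTH, adjusted p = 0.00795) and -5.04 (IR29, 4.98e-07). The fall of DREB1E in LTH was lost without LTH 48 h replicate 3 (adjusted p = 0.0749) or LTH recovery replicate 1 (0.0608), and LTH recovery replicate 3 was the highest of the 3 arrays for DREB1A, DREB1B, DREB1E and DREB1G.

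Against the unchilled controls, no member was called in LTH recovery by limma, and none had an unadjusted p below 0.05, beside 1.35% of all probe sets higher and 1.22% lower. A t-test on log2 values with the 2-fold minimum also called 0 members. The log2 differences ran from -1.02 for DREB1E (95% interval -2.43 to 0.38) to 0.31 for DREB1G (-0.46 to 1.08), so changes of 2-fold remain within some intervals. In IR29 recovery 1 of 6 was called, beside 8.94% of all probe sets higher and 11.7% lower. That was DREB1E, which fell to below its control by 2.15 on the log2 scale (standard error 0.69, adjusted p = 0.0173), and the call was lost without IR29 control replicate 1 (-1.64, adjusted p = 0.119). DREB1B in IR29 recovery stood at 1.31 (adjusted p = 0.189), which passed without IR29 control replicate 1 (2.19, adjusted p = 0.0255), and DREB2B at 0.42 (adjusted p = 0.0536) with all 3 recovery arrays above the 3 controls. The leaf marker sum in IR29 recovery was 8138 to 11581, against 25784 to 27576 in its control, and its part in these values was not tested.

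Between the genotypes, every called difference of a member was a lower level in LTH than in IR29. Before chilling, DREB1G was the 1 member called, at -1.86 (LTH minus IR29, standard error 0.38, adjusted p = 0.000741, limma), where 3.44% of all probe sets were lower and 4.07% higher in LTH. DREB2B was -0.64 (adjusted p = 0.00774), under the 2-fold minimum, with no overlap between its LTH and IR29 control arrays. DREB1A (-0.50), DREB1B (-1.19), DREB1C (0.57) and DREB1E (-0.77) did not pass, and their control arrays overlapped. For DREB1A, DREB1B, DREB1E and DREB1G replicate 1 was the highest of the IR29 controls.

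In the cold, 2, 2, 3 and 3 of the 6 members were called lower in LTH at 2, 8, 24 and 48 h and none higher, where the share of all probe sets lower in LTH was 4.34%, 4.47%, 6.50% and 6.50% and the share higher 6.88%, 6.74%, 8.21% and 9.29%. DREB1A was lower at each time, by 3.54, 3.53, 2.85 and 3.17 on the log2 scale (standard error 0.46, adjusted p at most 2.11e-05, limma). DREB1G was lower at each time as well, by 2.98, 1.93, 2.84 and 2.72 (adjusted p at most 0.000329). DREB1E was lower at 24 h (by 3.76, adjusted p = 0.00011) and at 48 h (by 2.35, adjusted p = 0.0114), and the 48 h call was lost without LTH 48 h replicate 1 (adjusted p = 0.116) or IR29 48 h replicate 3 (0.0812). At 8 h DREB1E stood at -1.78 (adjusted p = 0.0809), and it passed without LTH 8 h replicate 3 or IR29 8 h replicate 2.

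DREB1B differed by -1.60, -1.15, -0.81 and -1.35 at the 4 times, with the LTH arrays below the IR29 arrays at 8, 24 and 48 h and adjusted p between 0.146 and 0.497. At 2 h it passed without LTH replicate 1 (-2.39, adjusted p = 0.0258) or without IR29 replicate 3 (-2.24, adjusted p = 0.0475), the highest and the lowest array of their groups. DREB2B differed by -0.93 at 2 h (adjusted p = 9.12e-05, under the 2-fold minimum, which it passed with -1.05 without IR29 2 h replicate 1), and for 8, 24 and 48 h by -0.18, -0.21 and 0.02, and its arrays overlapped from 8 h on. At 48 h its interval was -0.32 to 0.35, which leaves out a 2-fold difference. At 8 h the meristem marker sum lay between 123 and 273 for LTH and between 395 and 422 for IR29, the leaf marker sum between 15757 and 19053 for LTH and between 21008 and 21597 for IR29, and their part in the genotype differences was not tested.

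In recovery 3 of 6 members were lower in LTH than in IR29, beside 7.96% of all probe sets lower. These were DREB1B (-2.94, standard error 0.71, adjusted p = 0.00204, limma), DREB1G (-1.22, adjusted p = 0.0148) and DREB2B (-1.003, adjusted p = 1.61e-05). The arrays of DREB1B and DREB2B were apart and those of DREB1G overlapped. The call for DREB1G was lost without LTH recovery replicate 1 or 2 or IR29 recovery replicate 1 or 3 (adjusted p = 0.14, 0.0506, 0.0847 and 0.0896), and DREB2B lay close to the 2-fold limit, with -0.94, -0.95 and -0.997 when LTH recovery replicate 2, IR29 recovery replicate 1 or IR29 recovery replicate 3 was left out. DREB1A stood at -0.77 and passed without LTH recovery replicate 3 (-1.32, adjusted p = 0.0421).

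Whether the response itself differed was tested by the interaction, the change against control in LTH minus that in IR29. DREB1A was the member called with all arrays and no further scaling, and it was called at all 4 chilling times, with values for 2, 8, 24 and 48 h of -3.04, -3.03, -2.35 and -2.67 (standard error 0.65, adjusted p = 0.0107, 0.00616, 0.0231 and 0.00655, limma). The share of all probe sets with a lower response in LTH was 0.402%, 0.589%, 2.09% and 2.82% at these times, and 1.19%, 2.26%, 4.02% and 5.89% had a higher one. The 24 h call was lost without any of 6 of the 12 arrays compared (LTH control 1, LTH 24 h 3, IR29 control 2 or 3, IR29 24 h 1 or 3), with values from -2.29 to -1.91 and adjusted p from 0.0509 to 0.0848, and the calls at 2, 8 and 48 h held without any 1 array. DREB1E at 24 h stood at -2.99 (adjusted p = 0.0569), and it passed without LTH 24 h replicate 2 (adjusted p = 0.0493) or IR29 control replicate 1 (0.0347), after quantile normalization (0.0476) and with the dimmest 40% of probe sets left out (0.0411).

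DREB1G, which was lower in LTH at every time, had responses that differed by -1.12, -0.08, -0.98 and -0.86, with adjusted p of 0.971 at 8 h and at most 0.367 at the others. For DREB1B the differences were -0.41, 0.04, 0.38 and -0.16 with a standard error of 1.01, so that the 95% interval at 8 h ran over -2.02 to 2.11 and holds differences of more than 2-fold in both directions. DREB2B had -0.28 at 2 h and 0.47, 0.44 and 0.66 at 8, 24 and 48 h (95% interval at 48 h 0.19 to 1.13, adjusted p = 0.0671). In recovery 0 of 6 members had a called difference of responses by limma, and none had an unadjusted p below 0.05. Of all probe sets 3.02% were lower, and the share that was higher is not given here. DREB1B had the largest size there, -1.75 (-3.81 to 0.32).

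**Figure D4:**
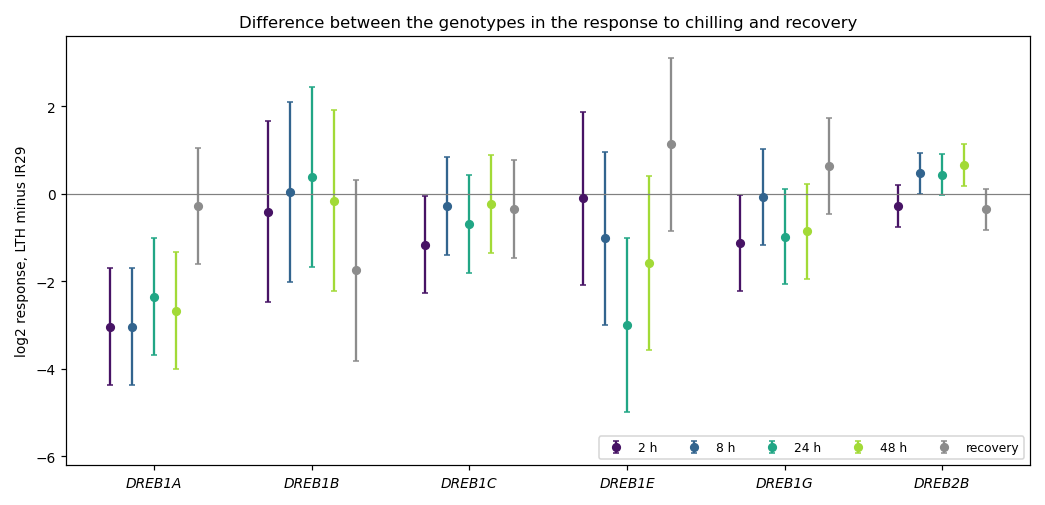
Difference between the genotypes in the log2 change against control (LTH minus IR29, vertical axis) for each member, at 2, 8, 24 and 48 h of chilling and in recovery. Points are limma interaction estimates and bars 95% intervals, from 3 arrays in each of 4 groups. The DREB1A points at the chilling times lie between -3.04 and -2.35, and no other member was called in this fit.

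Ordered over the 12 groups, DREB1A was highest in the 4 chilled IR29 groups, whose arrays overlapped with each other and not with the next group, the chilled LTH groups, and those in turn overlapped with IR29 recovery in the order of means. DREB1G had the same order of blocks, with the chilled IR29 groups at the top and its LTH 2 h group apart from the IR29 control below it. DREB2B was ordered by time at the top, with the LTH and IR29 48 h groups first (mean ± SD over 3 arrays 682 ± 82.8 for LTH, 674 ± 68.7 for IR29) and the 24 h groups next (437 ± 76.0 for LTH, 501 ± 36.4 for IR29). Over the 12 group means of log2 level, DREB1G correlated with DREB1A at r = 0.95 and with DREB1B at 0.95, and DREB2B with DREB1A at 0.74 and with DREB1B at 0.86. These are descriptions over 12 points that share arrays between members. The named probe sets most like each member were LOC4338911 (r = 0.98) and LOC4336519 (0.98) for DREB1A, LOC4341607 (0.99) and LOC4330788 (0.99) for DREB1B, LOC4325188 (0.96) and LOC4340181 (0.96) for DREB1E, DI19 (0.99) and LOC4332880 (0.99) for DREB1G, LOC4349047 (0.99) and LOC4347648 (0.99) for DREB2B, and LOC107276285 (0.89) and LOC4326661 (0.88) for the dim DREB1C.

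Of the 9 other DREB1 and DREB2 genes listed, 2 had a probe set of their own, DREB2A and DREB2D. DREB2A, known in Arabidopsis as a drought and heat regulator, rose at 2 h in both genotypes and in IR29 recovery. Its intensity in LTH was 12.8, 16.2 and 12.1 in the control, 60.6, 111 and 121 at 2 h, 36.2, 37.4 and 38.1 at 8 h, 24.4, 10.4 and 48.4 at 24 h, 12.1, 8.32 and 24.7 at 48 h and 38.9, 46.2 and 36.9 in recovery. In IR29 it was 10.2, 8.94 and 12.9 in the control, 18.4, 44.8 and 118 at 2 h, 12.5, 15.9 and 19.2 at 8 h, 12.1, 17.0 and 17.0 at 24 h, 13.9, 15.2 and 14.5 at 48 h and 89.6, 75.8 and 94.8 in recovery. It was called at 2 h in both genotypes (2.78 in LTH and 2.12 in IR29, standard error 0.47), at 8 h in LTH (1.45) and in IR29 recovery (3.03, adjusted p = 6.47e-06, limma), and in LTH recovery it stood at 1.57 (adjusted p = 0.059). DREB2D had group means between 2.97 and 7.40 except in LTH at 8 h, where 1 array read 83.7 and the lowest 1.12, and it was called in none of the comparisons with a control.

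Of 17 genes listed as possible regulators upstream of the DREB1 genes, 9 were measured. The list is mixed, with MYBS3 entered as a repressor and MYB4 and MYB3R-2 only as MYB factors of cold tolerance. None of the 9 was lower at any chilling time, where between 6.50% and 13.8% of all probe sets fell. In LTH 5 of the 9 rose at all 4 times, beside 4.40% of all probe sets, and in IR29 2 of the 9 did, beside 3.52%. At each single time 3 rose in IR29, beside 7.05%, 7.24%, 8.54% and 10.6% of all probe sets. The median log2 changes of the 9 over the 4 times were 1.03, 1.09, 1.45 and 1.57 for LTH and 0.89, 0.69, 0.74 and 0.89 for IR29, beside medians over all probe sets from -0.06 to 0.01. MYB4, a MYB factor whose rice form raises cold tolerance when overexpressed in Arabidopsis, had log2 changes between 3.94 and 4.84 for LTH and between 3.94 and 4.65 for IR29. MPK3, a MAP kinase that acts on the bHLH activator of DREB1 genes in rice, had log2 changes between 2.91 and 3.44 for LTH and between 3.12 and 3.69 for IR29. Both genes rose at all 8 chilling comparisons.

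MYBS3, the repressor of DREB1 genes, read 826, 1117 and 977 in the LTH control, 2129, 2008 and 1805 at 2 h, 2437, 2395 and 2226 at 8 h, 2749, 2542 and 2645 at 24 h and 2921, 2766 and 2941 at 48 h. In IR29 it read 1163, 1211 and 1388 in the control, 2514, 2419 and 2081 at 2 h, 1979.8, 2395 and 2174 at 8 h, 2430.2, 2229 and 2234 at 24 h and 2271, 2541 and 2139 at 48 h. The group mean stood higher at each later time in LTH, and in IR29 the chilled groups overlapped. The log2 changes of LTH, 1.03, 1.28, 1.45 and 1.57, were all called, and those of IR29, 0.90, 0.80, 0.88 and 0.89, were all under 2-fold with adjusted p at most 2.13e-06 (limma). The difference of responses, 0.58 at 24 h (adjusted p = 0.0191) and 0.69 at 48 h (adjusted p = 0.00338), was under the 2-fold minimum.

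MYB3R-2, a MYB factor of cold tolerance and the cell cycle, rose at all times in LTH, up to 2.02 at 48 h, and at 2 h in IR29 (1.01), with a called difference of responses of 1.10 at 48 h (adjusted p = 0.00049). The clock gene TOC1 rose at all times in LTH, by 1.403 to 2.40, and at 8, 24 and 48 h in IR29, by 1.23 to 1.99, while its morning-phased counterpart LHY was called in recovery only, at -1.43 in LTH and -2.65 in IR29. DREB1 genes are known to be gated by the clock, and in all comparisons with a control, treatment and hour of sampling cannot be told apart here. Between recovery and 48 h, at the same nominal hour, LHY changed by -1.57 in LTH and -2.12 in IR29. SIZ1, a SUMO ligase, and MPK6, a further MAP kinase, were called in none of the comparisons with a control.

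Of 18 listed targets and cold-protective genes, 14 were measured, and 4, 3, 4 and 3 rose in LTH at 2, 8, 24 and 48 h, beside 6.99%, 7.26%, 9.46% and 12.3% of all probe sets. In IR29 4, 2, 3 and 4 rose, beside 7.05%, 7.24%, 8.54% and 10.6%. Falls were 1 in LTH, at 24 h, beside 10.9% of all probe sets, and 1 in IR29, at 2 h, beside 9.49%. The median log2 change of the 14 lay between 0.14 and 1.30 for LTH and between -0.20 and 0.17 for IR29, beside -0.06 to 0.01 over all probe sets. TPP1, a trehalose-6-phosphate phosphatase gene of cold tolerance, read 1268, 1252 and 944 at 2 h of chilling in LTH, against 44.0, 31.3 and 20.8 in its control, and 2229.5, 1928 and 1750.5 at 2 h in IR29, against 193, 114 and 146 in its control. It rose by 5.23, 5.36, 4.89 and 4.88 in LTH and by 3.73, 3.59, 3.79 and 3.55 in IR29 (standard error 0.26, limma). Unlike DREB1A, its response was larger in LTH, with called differences for 2, 8 and 48 h of 1.497, 1.77 and 1.33, while its LTH control level was lower by 2.27.

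LIP9, a dehydrin gene known as a target of DREB1 factors in rice and singled out here after its values were seen, rose in all 8 chilling comparisons, between 1.75 and 2.08 for LTH and between 1.53 and 2.03 for IR29. RAB25, a further dehydrin gene, rose at 2 and 24 h in LTH (2.35 and 1.90) and at 2, 24 and 48 h in IR29 (2.69, 2.05 and 1.92). Its largest called change against a control, 2.76 in log2 size, lay in recovery. The abscisic acid-responsive genes RAB16A and RAB16B and the late embryogenesis gene LEA3 were called in no chilling comparison, and all 3 rose in LTH recovery, by 3.03, 4.10 and 3.97. The recovery arrays of LTH differed widely, as RAB16B read 28.2, 468 and 1152, against 10.2, 21.3 and 13.9 in the control, and RAB16 genes are close paralogs whose probes may share signal. SALT, a mannose-binding lectin gene, fell at 2 h in IR29 (-1.91) and rose in IR29 recovery (4.09). LTI6B, a small membrane protein gene, and P5CS1, of proline synthesis, were called in none of the comparisons with a control.

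**Figure D5:**
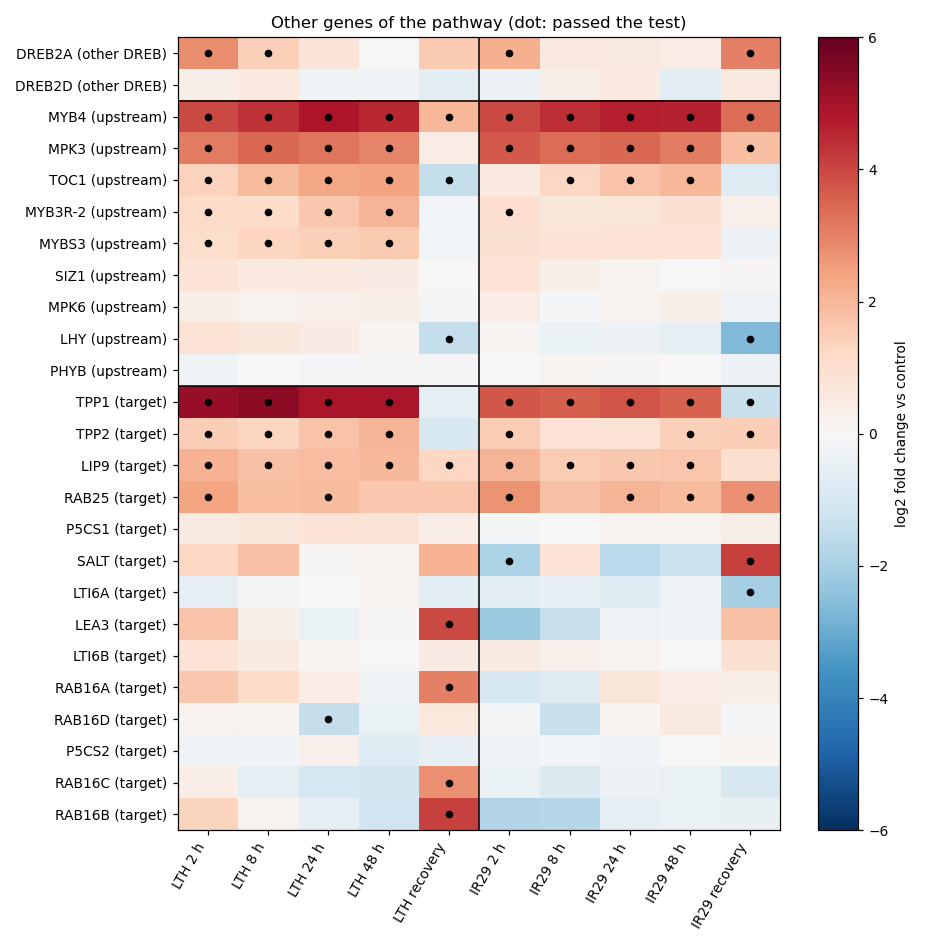
Log2 fold change against control (colour) of the measured other DREB genes and of the genes listed as possible upstream regulators or as targets. The 5 LTH comparisons stand left of the 5 IR29 comparisons. A dot marks a gene that passed the test in that comparison. TPP1, MYB4, MPK3 and LIP9 carry a dot at all chilling times in both genotypes, and the dots for RAB16A, RAB16B and LEA3 lie in LTH recovery.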

How the data were processed

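Leaf RNA of 36 samples was hybridised to 1-colour Affymetrix rice arrays. The authors scanned them with GCOS and computed the deposited linear intensities, 1 per probe set, with dChip, normalizing and averaging over probes before deposit, so single probes could not be re-examined. Values below 1 (20 values) were set to 1, log2 was taken, and no further scaling was applied, as array medians were 9.81 to 11.16. All 12 groups entered a single limma fit (version 3.58.1, R 4.3.3) over 57258 probe sets, with moderated variance that follows intensity and Benjamini-Hochberg adjustment within each comparison. Calls needed an adjusted p below 0.05 and a change of at least 2-fold. The number of arrays, 3 per group, limits the precision. The labels call them biological replicates, and by the study's methods the plates held both genotypes.

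Gene names came from the platform annotation, where 22436 probe sets had 1 gene, 95 several and 34727 none, updated through RefSeq. Members and gene lists were chosen with earlier results of these data known. Each list gene was read from 1 probe set, that with the highest mean log2 level over all 36 arrays, chilled arrays included. LIP9 had 3 probe sets and MYB4 had 2, and values of the probe sets not chosen are not given. Named list genes were up to 6 called genes with the largest changes against control and up to 2 uncalled ones, the brightest, per list. For each member the 2 most correlated named genes were added. Alternatives were quantile normalization, median centring, a floor, a filter on the dimmest 40%, no fold minimum, no intensity trend, a fit of only the groups compared, a t-test, a replicate block and leaving out each array. The t-test was run on log2 values with the 2-fold minimum, with and without Benjamini-Hochberg adjustment. The study names a t-test and dChip lower bound fold changes, and its own procedure was not rerun. The calculation was tested on simulated data. Promoter and protein sequences were not used here.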

Additional observations from a re-analysis of the deposited data

Results flagged for a closer look

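The response of DREB1A to chilling differed between the genotypes at all 4 times, by a test of the difference itself (the limma interaction, 3 arrays in each of 4 groups). The log2 change against control was smaller in LTH than in IR29, with differences (LTH minus IR29) for 2, 8, 24 and 48 h of -3.04, -3.03, -2.35 and -2.67, and the chilled arrays of LTH all lay below those of IR29. These 4 values share the control arrays of both genotypes. How well the probe set matches the sequence of each genotype was not tested. The 24 h call was lost without any of 6 of the 12 arrays compared. DREB1E had a larger difference at 24 h, -2.99, which missed the threshold (adjusted p = 0.0569) and passed after quantile normalization (0.0476) and with the dimmest 40% of probe sets left out (0.0411). Groups of 3 arrays are too small for a test of single outlying arrays.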

How the results depend on the processing

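No called value changed sign under the alternatives run. Of 174 values of single members, 5 changed sign under another scaling, floor, filter or block and 33 without 1 array, none of them called and none over 0.61 in log2 size. Over the fold changes of single members, 832 results kept their side of the threshold under another scaling, floor, filter or block, 3 lost a call and 6 gained a call, and without 1 array 1166 kept it, 43 lost a call and 15 gained a call. Quantile normalization and median centring each gave 2 called steps between neighbouring times in place of 1. Without a fold minimum there were 4, and the t-test with Benjamini-Hochberg adjustment gave 0. Having no fold minimum gave 2 members that differed between the LTH and IR29 controls in place of 1. The adjusted t-test gave 13 chilling calls in LTH in place of 20, 3 falls from 48 h to recovery in LTH in place of 5, and 0 calls in IR29 recovery against control in place of 1. With DREB1C read from its candidate probe set, an alternative added after the data were seen, 1 member in place of 0 was called in LTH recovery against control. The cause of these shifts was not tested.

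Without 1 array, the number of calls ran from 15 to 21 for chilling in LTH, 20 to 21 for chilling in IR29, 4 to 5 for recovery against 48 h in LTH, 0 to 2 for neighbouring times, 11 to 14 for LTH against IR29 in the cold or in recovery, and 3 to 5 for the differences of responses in the cold. The other 5 counts did not move, but in IR29 recovery against control the called member changed. Without IR29 control replicate 1 the fall of DREB1E was lost and a rise of DREB1B was gained. Replicate numbers were shared by the groups, and no source ties a number to a plate. All 3 correlations of same-numbered arrays were above 0.1 in 1 of 24 comparisons, LTH against IR29 at 2 h (0.26 to 0.51), and between the genotypes in the control and in the cold 14 of 15 were above 0, whereas over all comparisons they ranged from -0.70 to 0.51. The block changed no call of a member at 2 h between the genotypes. A replicate block gave 19 chilling calls in LTH in place of 20 (DREB1C at 8 h, adjusted p = 0.05) and left the other counts as they were. The mean level of DREB1C lay at the 38.2 percentile of all probe sets, and with 3 arrays a group the intervals of DREB1B and DREB1E span differences of more than 2-fold.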
